A study of Bos taurus with 23 samples.

Results

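Among the genes of peripheral white blood cells (PWBC), 100 were chosen as those that differed most between 5 heifers whose expression profiles were otherwise alike. The choice was made from 8400 candidate genes. These were retained after the filter on low counts in both stations, had a mean of 5 to 200 CPM (read pairs of a gene scaled to a common library total) in the 5 heifers, and were not among the genes that the paper lists for the pregnancy outcome or ENSBTAG00000038233. The members were selected on their measured spread: they are the 100 candidates with the highest standard deviation (SD) of log2(CPM + 1) over the 5 heifers, out of 10422 genes retained in both stations and 24616 in the count tables. Their spread over those 5 libraries is therefore a description of the choice. The libraries of the other 18 heifers had no part in it.

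PWBC were taken by blood draw at artificial insemination (AI) from 23 Angus-Simmental crossbred beef heifers after estrous synchronization, with 1 library per heifer. At station A, 6 heifers conceived to AI (AI-pregnant) and 5 did not, but conceived to natural breeding later in the season (NB-pregnant). At station B, 6 heifers were likewise AI-pregnant, and 6 had not conceived when the breeding season ended (non-pregnant). The study asked whether the white cell transcriptome at insemination differed between these outcomes. A heifer is named here by station, outcome and a number within its group, so that A-AI 1 is the first AI-pregnant heifer of station A. The 5 heifers that chose the members are A-AI 1, A-AI 3, A-AI 6, A-NB 2 and A-NB 3.

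White blood cells are a mixture of neutrophils, lymphocytes, monocytes, eosinophils and basophils, and the mixture differs from animal to animal. A transcript made by a single cell type can thus vary in such preparations when all the other genes are steady. In such bulk samples, fewer cells of a type and less RNA per cell cannot be told apart. The count tables name genes by Ensembl identifier, and none of these identifiers matched the gene names used here, so the members are given by identifier, without symbol, function, position or sequence. Of the listed genes that the paper pairs with a symbol, LYZ, a lysozyme taken here as a monocyte marker, was at 455 to 2146 CPM over the 23 libraries. A few other listed genes with a symbol are set beside the members further on, and the remaining cell type markers were not analysed here.

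Libraries fell into 4 classes, set by profile within each station. The 5 libraries that chose the members held 6832237 to 20053283 counted read pairs, and their log2(CPM + 1) over the 10422 genes correlated with Pearson's r of 0.978 to 0.988. The other 6 of station A held 4826003 to 11861598 pairs and correlated with the 5 at 0.818 to 0.942. In station B, 3 libraries (B-AI 3, B-non 1 and B-non 4) stood close to the 5, at 0.968 to 0.980, and the other 9 were less like the 5, at 0.534 to 0.700. Those 9 held 5577129 to 9330573 pairs. Inside the classes, r was 0.918 to 0.979 for the 6, 0.962 to 0.975 for the 3 and 0.958 to 0.985 for the 9. Some of the 6 were thus less like each other than the 3 were like the 5. A gene with 3 pairs, the smallest count taken here as a detection floor, is at 0.147 to 0.622 CPM, depending on the library. Values from a few pairs carry large counting error.

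Over the 5 heifers the SD of the members ran from 0.755 to 2.25 on the log2 scale, with a median of 0.92 against 0.15 for all candidates. The SD that counting alone would give was 0.038 to 0.187, well below the measured SD of every member. The highest heifer exceeded the lowest by a median of 5.79-fold among the 99 members with at least 1 pair in all 5, and by 1.32-fold among the candidates. The members were the lower expressed part of the range, with a median of 15.1 CPM against 41.9 CPM. Just inside the limit stood ENSBTAG00000014628 and ENSBTAG00000017715, with SD of 0.757 and 0.755. ENSBTAG00000006354 and ENSBTAG00000007013 fell just outside, with 0.753 and 0.7503.

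The members also varied between heifers in libraries that had no part in the choice. Of the 100, 83 were in the top 10% of candidate genes by SD over the other 6 libraries of station A. In the 9 alike libraries of station B the count was 73, and 66 members were in the top 10% in both sets, where 2.94% of candidates were. In the 3 remaining libraries of station B it was 55, and 29 without B-AI 3. The median SD of the members was 0.90 over the 6 libraries and 0.73 over the 9, against 0.36 and 0.32 for all candidates, and 98 and 100 members lay above those medians. When the variance expected from counting was removed first, the counts were 82, 70 and 54. The mean level of the members was lower than that of the candidates (15.1 against 41.9 CPM, as above), and its part in these counts was not tested. Over all 12 libraries of station B at once, only 13 members were in the top 10%, with a median SD of 0.91 for the members and 0.63 for all candidates.

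**Figure D1:**
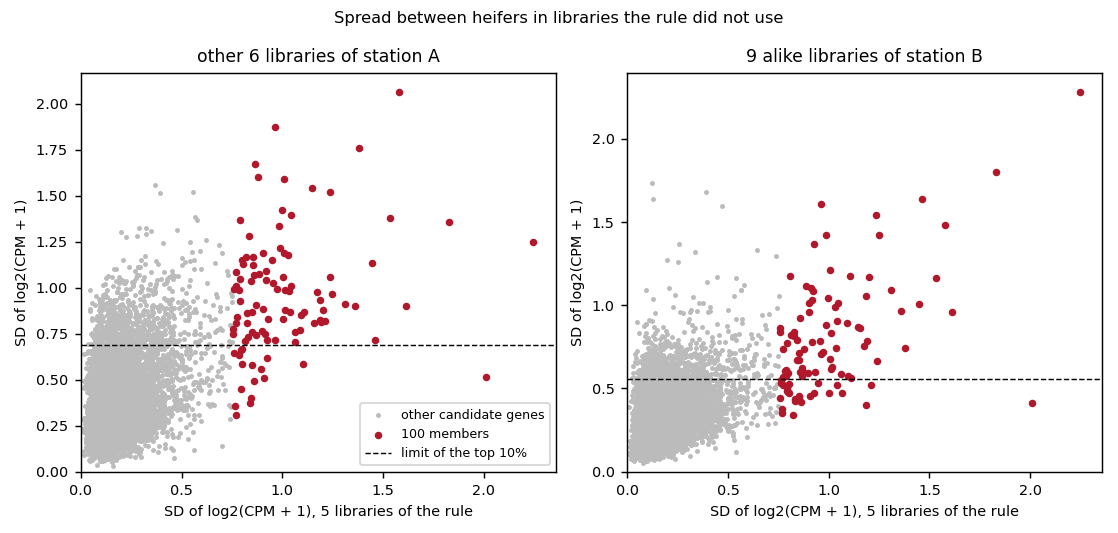
SD of log2(CPM + 1) of 8400 candidate genes over the 5 libraries of the rule (horizontal) against the SD over the other 6 libraries of station A (left) and the 9 alike libraries of station B (right). Members are red, other candidates grey, and the dashed line is the limit of the top 10%, above which 83 and 73 members lie.

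A gene was taken as off in a library under 0.5 CPM and as on at 5 CPM or more. An on-off pattern needed at least 2 libraries off and 2 on among the 23. There were 17 members with this pattern, beside 2.62% of the candidates. Within the 18 libraries without a part in the choice there were 14, beside 2.52%. For 6 of the 17, and for 206 of the 220 candidates with the pattern (2.45% of all candidates), no class of libraries held both an off and an on library. There the pattern ran between classes and not inside one. The other 11 were off in at least 1 library and on in another of the same class, which 14 candidates were (0.167%). In all, 29 members were off in at least 1 library (7.05% of candidates), and 17 were on in all 23 (59.8%). Without the demand for 2 libraries of each kind, 20 members were on and off inside a class, beside 0.845% of candidates. By class there were 5 members in the 5 libraries of the rule (0.0595% of candidates, fixed by the choice), 8 in the other 6 of station A (0.214%), 1 in the 3 of station B (0.0238%) and 11 in the 9 of station B (0.607%). The limit for off sets the count, which was 35 members at under 1 CPM (8% of candidates) and 8 at under 0.25 CPM (0.643%). All counts over the 23 libraries include the 5 that chose the members, so their excess over the candidates is partly fixed by the choice. The lower mean level of the members lies nearer to the limit for off, and its part in these counts was not tested.

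**Figure D2:**
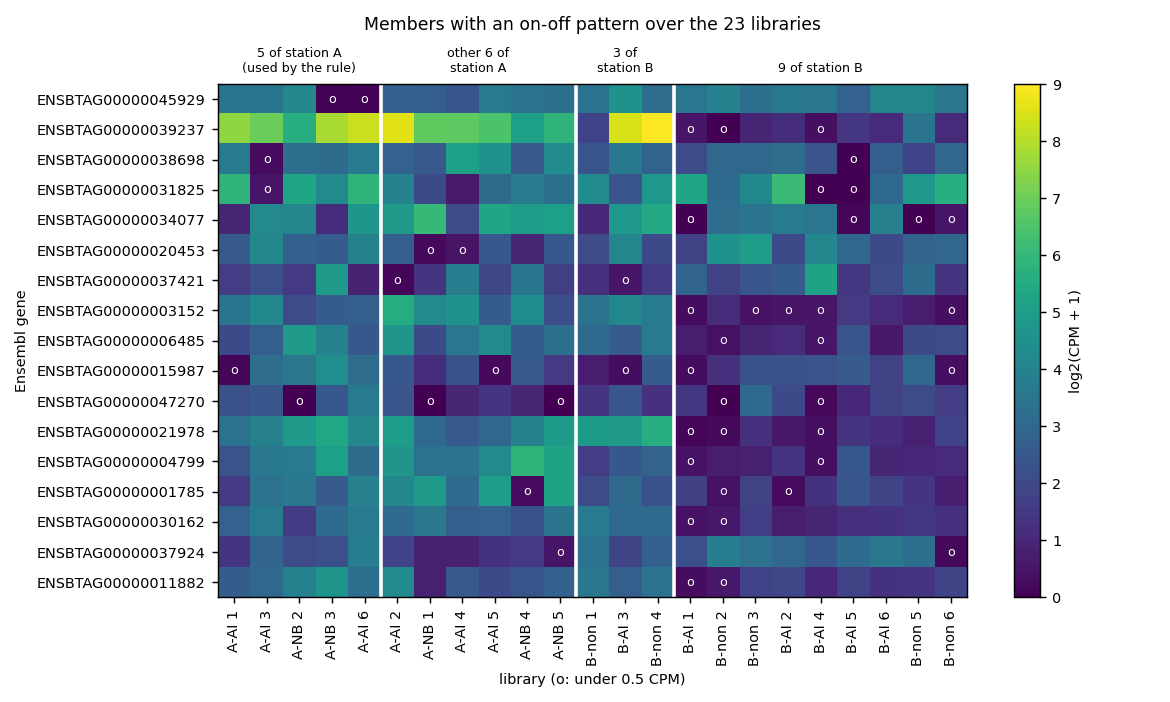
Log2(CPM + 1) of the 17 members with an on-off pattern (rows, in order of the largest gap between neighbouring values) in the 23 libraries (columns, by class of profile). A circle marks a library under 0.5 CPM: ENSBTAG00000045929 has 2 such libraries, both among the 5 of the rule, and ENSBTAG00000003152 has 5, all among the 9 of station B.

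Among the on-off members, the widest gap belonged to ENSBTAG00000045929. Among the 5 heifers it was at 10.4 CPM in A-AI 1, 10.3 in A-AI 3, 16.8 in A-NB 2, 0.0499 in A-NB 3 and 0.0687 in A-AI 6. The last pair of values rests on 1 read pair each in the deepest and the middle library of the 5 by depth, whereas 97 to 164 pairs were counted in each of the others. It was at 4.27 to 12.3 CPM in the other 6 libraries of station A, 8.27 to 23.2 in the 3 and 6.07 to 16.4 in the 9 of station B, so that 20 of 23 heifers were on and the only off values were those of an AI-pregnant and an NB-pregnant heifer of station A. Outside the 5 it varied less than most members but more than most candidates. Its SD stood at rank 2130 of 8400 over the 6 libraries and 2450 over the 9, against median ranks of 226 and 199 for the members. It was 1 of 10 members outside the top 10% in both sets.

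ENSBTAG00000038698 was off in 2 heifers of different stations. In the 5 it was at 12.5 CPM in A-AI 1, 0.212 in A-AI 3, 8.49 in A-NB 2, 8.13 in A-NB 3 and 11.7 in A-AI 6. The other 6 of station A ranged from 4.92 to 33.7 CPM and the 3 of station B from 4.07 to 11.31. In the 9 of station B, B-AI 5 had no pair and the other 8 heifers were at 2.51 to 8.36 CPM. Both heifers in which it was off were AI-pregnant, as was A-AI 4, the heifer at 33.7 CPM.

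ENSBTAG00000031825 had the highest SD of all members, 2.25, and again the highest of all candidates over the 9 libraries of station B, 2.28. Its values in the 5 were 57.3 CPM in A-AI 1, 0.424 in A-AI 3, 38.5 in A-NB 2, 18.2 in A-NB 3 and 56.5 in A-AI 6. In station B no pair was counted in B-AI 4 and B-AI 5, while B-AI 1, B-AI 2 and B-non 6 were at 38.1, 69.7 and 49.4 CPM. Heifers of the other classes lay between these ends, with A-AI 4 at 0.582 CPM, A-NB 1 at 3.099 and B-AI 3 at 4.12. Inside the 9 of station B no heifer lay between 0 and 7.45 CPM, and inside the 5 none lay between 0.424 and 18.2.

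ENSBTAG00000034077 came second of the candidates over the 9 libraries of station B (SD 1.80). Among the 5, A-AI 1 and A-NB 3 were at 0.952 and 1.25 CPM, and A-NB 2, A-AI 3 and A-AI 6 at 17.1, 17.8 and 25.5. In the 9 of station B it was not counted in B-AI 1 and B-non 5, was at 0.110 CPM in B-AI 5 and 0.423 in B-non 6, and was at 8.28 to 14.2 in the other 5 heifers. The gap between 0.423 and 8.28 CPM in that class held no heifer. B-non 1, at 1.08 CPM beside 26.9 in B-AI 3 and 42.4 in B-non 4, was likewise low in its class.

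The remaining members that were off and on inside a class had 2 to 5 off libraries. ENSBTAG00000015987 was off in A-AI 1, A-AI 5, B-AI 3, B-AI 1 and B-non 6, at 0.127 to 0.282 CPM, and reached 20.3 CPM in A-NB 3. ENSBTAG00000047270 was not counted in A-NB 1, A-NB 2, A-NB 5 and B-non 2, was at 0.151 CPM in B-AI 4, and reached 12.5 CPM in A-AI 6. ENSBTAG00000001785 was at 0.192 CPM in A-NB 4, whereas the other 5 of that class were at 7.76 to 35.4 CPM.

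Lower values set ENSBTAG00000020453 and ENSBTAG00000037421 apart in a few heifers. The former was at 0.182 CPM in A-NB 1 and 0.388 in A-AI 4, and highest in B-non 3, at 29.8. The latter was at 0.0843 CPM in A-AI 2 and 0.471 in B-AI 3, and at 27.3 and 35.0 in A-NB 3 and B-AI 4. ENSBTAG00000037924 was at 0.414 CPM in A-NB 5 and 0.141 in B-non 6, and highest in B-non 2, at 13.5. In these genes the off libraries were the ends of a graded series, with 9 to 14 heifers between 0.5 and 5 CPM. ENSBTAG00000015987, ENSBTAG00000047270 and ENSBTAG00000001785 were graded as well, with 12, 16 and 11 heifers in that range.

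**Figure D3:**
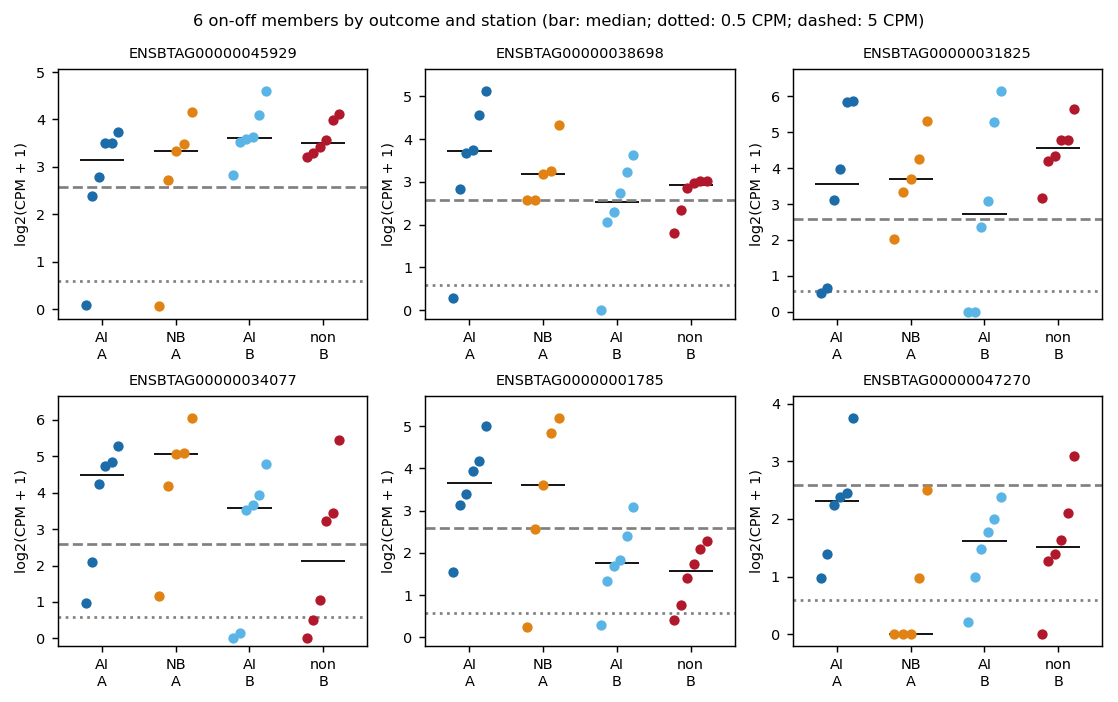
Log2(CPM + 1) of 6 on-off members, 1 point per heifer, by outcome (AI, NB or non) and station (A or B), with the median as a bar and lines at 0.5 CPM (dotted) and 5 CPM (dashed). For ENSBTAG00000045929 a single AI-pregnant and a single NB-pregnant heifer of station A lie below the dotted line, and all 12 heifers of station B lie above the dashed line.

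ENSBTAG00000039237, with a length of 320 bases, followed the classes of libraries with large steps. In station A it was at 48.2 to 313 CPM in the 5 and 33.5 to 389 in the other 6. In station B it was at 350.3 CPM in B-AI 3 and 561 in B-non 4, but at 2.54 in B-non 1, the other library of that class. The 9 others had 0 to 1.65 CPM except for 10.1 in B-non 5. Its off libraries were B-AI 1, B-AI 4 and B-non 2.

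The 6 members that were off and on only between classes were ENSBTAG00000003152, ENSBTAG00000006485, ENSBTAG00000021978, ENSBTAG00000004799, ENSBTAG00000030162 and ENSBTAG00000011882. All of their off libraries were among the 9 of station B. The same was true of 189 of the 220 candidates with an on-off pattern, and of 8 of the 17 members with one. Candidates needed a mean of 5 CPM or more in the 5 libraries of the rule, so a gene off in all 5 could not be chosen. ENSBTAG00000003152 was at 0.236 to 1.88 CPM in the 9 and at 3.22 CPM or more in the other 14 heifers. ENSBTAG00000021978 was at 0.118 to 2.54 CPM in the 9 and at 4.85 to 48.3 elsewhere. None of the 6 was off in the 3 other libraries of station B, and 5 were on in all 3 of them, the exception being ENSBTAG00000004799, at 2.08 to 6.36 CPM. The off values thus lay in 1 of the 2 classes of station B.

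Of the other members with the highest SD, ENSBTAG00000005359 had the highest SD of all candidates over the other 6 libraries of station A, 2.06. It was at 9.27, 2.44, 27.2, 61.3 and 10.9 CPM in A-AI 1, A-AI 3, A-NB 2, A-NB 3 and A-AI 6, and at 0.182 in A-NB 1, 26.7 in A-AI 5 and 50.9 in A-NB 4. In the 9 of station B it was at 2.24 to 41.7 CPM. ENSBTAG00000002278 was at 30.4 CPM in A-NB 2 and at 1.65 to 2.86 in the other 4 of the 5. It stayed at 0.328 to 4.37 CPM in the other 6 of station A, whereas the 9 of station B ran from 2.96 to 62.8. ENSBTAG00000005666 fell low in single heifers of station A, with 3.50 CPM in A-AI 6, 2.71 in A-AI 4 and 2.30 in A-NB 4, against 23.9 to 61.2 in the other 8. In station B it was low in a whole class, at 1.30 to 9.05 CPM in the 9, against 32.3 to 38.2 in the 3.

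The genes of all those retained in both stations that were most like the leading on-off members over the 23 libraries were not members. ENSBTAG00000043378 and ENSBTAG00000006405 had Pearson's r of 0.57 and 0.54 with ENSBTAG00000045929, but neither was under 8.28 CPM in any library. With ENSBTAG00000038698 the highest were ENSBTAG00000043376 and ENSBTAG00000007780, at 0.60 and 0.56. ENSBTAG00000039237 had closer companions in ENSBTAG00000018016 and ENSBTAG00000003556, at 0.94 and 0.93, over all classes. No 3 or more members were on in exactly the same libraries and off in at least 2 others.

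Of the 100 members, 49 were lowest in A-AI 1, where 15.8% of the candidates were lowest. In A-NB 2, 26 were highest (11.1% of candidates), and in A-NB 3, 32 were highest, close to the 33.0% of candidates. A block of 36 members was lowest in A-AI 1 and highest in A-NB 2 or A-NB 3, a pattern of 9.35% of the candidates. In the 5, the mean log2(CPM + 1) of the block was 2.92 in A-AI 1, 4.16 in A-AI 3, 4.08 in A-AI 6, 4.996 in A-NB 2 and 5.06 in A-NB 3. The block's genes stayed alike in libraries that had no part in choosing them. The median Pearson's r between pairs of its genes was 0.68 over the other 6 libraries of station A and 0.47 over the 9 of station B, against 0.16 and 0.06 between pairs of all candidates. Between pairs of all 100 members the medians were 0.22 and 0.13. For the 49 members lowest in A-AI 1, which include the block, they were 0.53 and 0.32. These are values across genes that share libraries and depth, over 6 and 9 heifers. Within the block, 30 genes were in the top 10% by SD over the 6 libraries and 23 over the 9, and 5 had an on-off pattern. The other 64 members gave 53, 50 and 12, which is about the same share over the 6 libraries and a larger one in the other counts.

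The mean of the block ran from 3.03 in A-NB 1 to 5.10 in A-AI 2 over the other 6 of station A, and from 2.77 to 3.91 over the 9 of station B. ALAS2, which encodes the first enzyme of heme synthesis in red cell precursors, was at 14.7 CPM in A-AI 1, 46.7 in A-AI 3, 19.6 in A-AI 6, 81.8 in A-NB 2 and 31.6 in A-NB 3. Over the other 6 libraries of station A the block's genes had a median r of 0.70 with ALAS2, and 27 of the 36 were above 0.5, as were 24.9% of the candidates. Over the 9 of station B, where ALAS2 was at 1.42 to 9.50 CPM, the median r was 0.13 and 4 were above 0.5. Among the candidates 2.08% were above 0.5 there, with a median r of -0.02. With TAC3, the neurokinin B precursor, the block had medians of 0.69 over the 6 and 0.47 over the 9 libraries, against 0.33 and 0.18 for the candidates. SIGLEC14, a sialic acid-binding receptor of myeloid cells, gave 0.14 over the 6, below the 0.35 of the candidates, and 0.49 over the 9, above their 0.21. For TFF2, LYZ and FCER1A the medians over the 6 libraries were 0.10, 0.30 and 0.45, each below the 0.20, 0.42 and 0.49 of the candidates. Over the 9 they were 0.20, 0.03 and 0.16, against -0.003, 0.09 and 0.08. The part of red cell precursors or of any other cell type in the block was not tested.

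**Figure D4:**
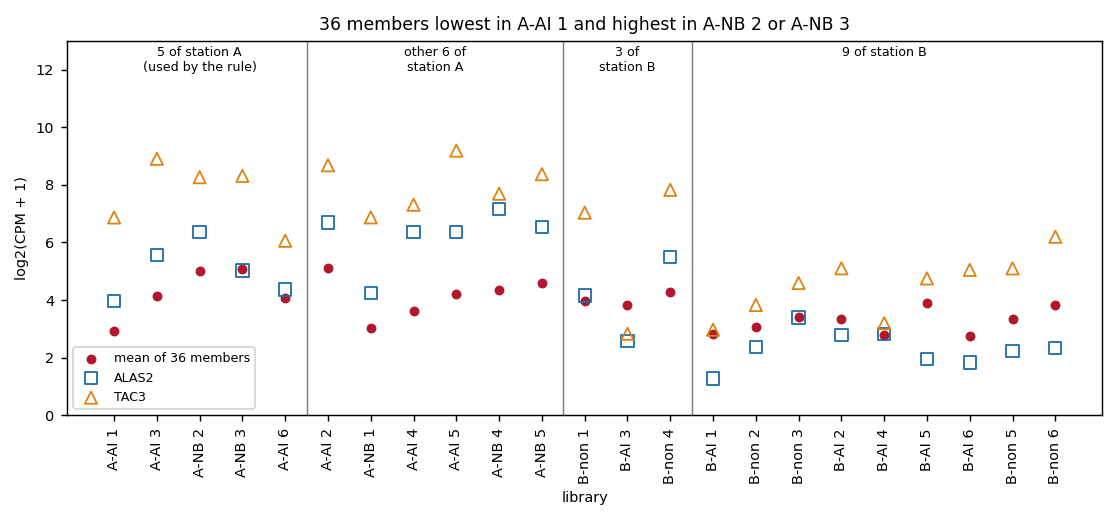
Mean log2(CPM + 1) of the 36 members lowest in A-AI 1 and highest in A-NB 2 or A-NB 3 (circles) in each of the 23 libraries, by class, with ALAS2 (squares) and TAC3 (triangles) on the same scale. Among the 6 libraries of station A that did not choose the genes the block is lowest in A-NB 1, at 3.03, and highest in A-AI 2, at 5.10.

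Pairs that aligned to several places had been dropped by the authors, so genes with near-identical copies may be undercounted, and which members have such copies was not analysed here.

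The outcome was tested with edgeR's quasi-likelihood test over all genes of a station, with AI-pregnant heifers as the reference. In station A, 0 members passed a Benjamini-Hochberg adjusted p of 0.05 (0% of the 12128 genes tested), and the smallest adjusted p was 0.999. At an unadjusted p under 0.05 there were 11 members, 8 higher and 3 lower in NB-pregnant heifers, beside 0.833% of all genes (0.462% higher and 0.371% lower). With each heifer left out this count was 4 to 18, lowest without A-NB 2 or A-AI 6 and highest without A-NB 1. DESeq2 gave 0 members by adjusted p (0.0165% of genes) and 13 unadjusted (1.54%). The 5 libraries that chose the members are among these 11, with both A-NB 2 and A-NB 3 at the high end of the block. In the 6 libraries without a part in the choice, 15 members had an unadjusted p under 0.05, 4 higher and 11 lower, beside 3.62% of all genes, of which 123 were higher and 316 lower. Without normalization factors the split was 2 higher and 5 lower, a setting that moved the median over all genes from 0.01 to -0.12 on the log2 scale. The median log2 fold change of the members was 0.28 in the 11 libraries and -0.10 in the 6.

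In station B, from which no library chose the members, 0 of 100 passed at the adjusted p (0% of the 10832 genes), and the smallest adjusted p of all genes was 0.874. At an unadjusted p under 0.05, 2 members were higher in non-pregnant heifers and 0 lower, beside 0.443% of all genes (0.249% higher and 0.194% lower), and DESeq2 gave 0 adjusted (0% of genes) and 7 unadjusted (0.840%). Without B-AI 3 the quasi-likelihood count was 20, 19 of them higher, beside 20.9% of all genes. The median log2 fold change of the members was 0.42, with 79 above 0, against a median of 0.03 for all genes. Without the 3 libraries unlike the other 9 of their station, 91 members could be tested and 66 were above 0. Their median was 0.20, against -0.02 for all genes. The share of all genes above 0 was not counted. Genes of the block varied together, so the numbers above 0 are a description and not repeated evidence. In neither station did a member separate the outcomes without overlap (0.148% and 0.0277% of all genes). The call rule of the paper, which rests on unadjusted p-values, takes in 0 members (0.148% of all genes at station A, 0.0554% at station B) because the genes it lists were left out. Regardless of sign, the median log2 fold change was 0.55 for the members and 0.17 for all genes in station A. The same medians were 0.48 and 0.27 in station B. Genes chosen for a high spread between heifers tend to larger fold changes between any groups. At station A some of the libraries tested also chose the members. These medians are therefore no result about the outcome.

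The single member past the adjusted threshold in any of the settings was ENSBTAG00000027962, in station B without those 3 libraries. With all 12, it was at 1.29 to 6.36 CPM in AI-pregnant heifers (median 1.83) and at 0.999 to 16.7 CPM in non-pregnant heifers (median 9.48). The groups overlapped through B-AI 3 on the high side and B-non 1 and B-non 4 on the low side. Its log2 fold change was 1.67 ± 0.64 (SE), with an adjusted p of 0.874 by the quasi-likelihood test. The exact permutation test of mean CPM gave p = 0.0411, or 0.147 after Benjamini-Hochberg adjustment over the 8 members so tested. In the 9 libraries the log2 fold change was 2.66, with an adjusted p of 0.0155 by the quasi-likelihood test, where 0.00964% of genes passed. In station A it was at 11.03 CPM in A-AI 3 against 1.31 to 2.75 in the other AI-pregnant heifers, and at 0.829 to 11.2 CPM in the NB-pregnant.

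Of the others with the smallest p in station B, ENSBTAG00000046961 was at 0.965 to 2.71 CPM in AI-pregnant heifers (median 1.83) and 1.55 to 6.92 CPM in non-pregnant heifers (median 3.20). Its log2 fold change was 0.91 ± 0.41 (SE), with p = 0.0606 by the exact permutation test, and fell to 0.60 without B-non 1. ENSBTAG00000037421 and ENSBTAG00000004443 were the first by p of the members lower in non-pregnant heifers, at -1.50 ± 0.88 and -0.48 ± 0.37. Without B-AI 4 the former moved to -0.11, and without B-AI 1 the latter to -0.21.

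In station A, ENSBTAG00000040367 was at 22.4 to 151 CPM in AI-pregnant heifers (median 43.5) and within 19.6 to 24.4 in all 5 NB-pregnant heifers (median 21.96). The log2 fold change was -1.34 ± 0.54 (SE), and -0.61 without A-AI 4, the heifer at 151 CPM. The two-sided exact permutation test gave p = 0.0130, where the smallest p this design allows is 0.00216. After Benjamini-Hochberg adjustment over the 8 members so tested, the permutation p was 0.104. ENSBTAG00000022807 was at 2.78 to 36.5 CPM in the AI-pregnant (median 13.0) and 0.547 to 10.97 CPM in the NB-pregnant (median 1.92), with a log2 fold change of -1.78 ± 0.72 and an exact permutation p of 0.0736.

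ENSBTAG00000002278 and ENSBTAG00000013953 were the members with the smallest p of those higher in NB-pregnant heifers. The first was at 0.328 to 2.86 CPM in AI-pregnant (median 1.60) and 0.575 to 30.4 in NB-pregnant heifers (median 2.74), with a log2 fold change of 2.27 ± 0.84, and this rested on A-NB 2, without which it was 0.64. The second was at 5.62 to 18.9 CPM and 4.92 to 42.4 CPM, with a log2 fold change of 0.99 ± 0.41 that was 0.30 in the 6 libraries without a part in the choice. Their exact permutation p were 0.264 and 0.199. These 8 members were picked among 100 for the smallest p in each direction in the same heifers. Their permutation p are therefore descriptions and too small to serve as tests.

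**Figure D5:**
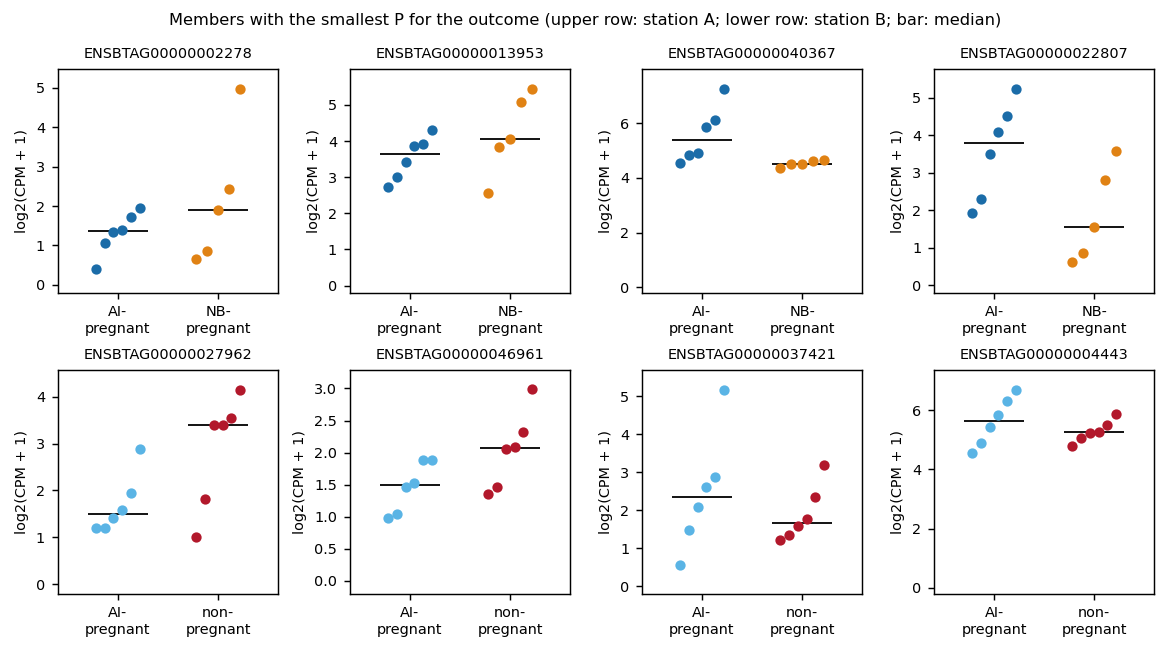
Log2(CPM + 1) of the 8 members with the smallest p for the outcome, 1 point per heifer and the median as a bar, in station A (upper row, AI-pregnant against NB-pregnant) and station B (lower row, AI-pregnant against non-pregnant). The groups overlap in all 8, and ENSBTAG00000040367 is confined to 19.6 to 24.4 CPM in the 5 NB-pregnant heifers.

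None of the 17 on-off members passed the adjusted threshold for the outcome in either station. Of the 11 that were on and off inside a class, 7 were off in both AI-pregnant and other heifers, 3 in AI-pregnant heifers only and 1 in others only. The adjusted p of edgeR's quasi-likelihood test for the 17 was 0.999 in station A and 0.874 to 0.985 in station B. ENSBTAG00000047270, not counted in 3 of 5 NB-pregnant heifers and at 0.969 CPM or more in all 6 AI-pregnant heifers of station A, had a log2 fold change of -1.77 ± 0.95 there and 0.26 ± 0.79 in station B.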

How the data were processed

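Members and lists were chosen with earlier results of these data known. Per the paper's methods, libraries were made with a stranded mRNA kit, read pairs were aligned to UMD3.1, pairs that aligned to several places and duplicates were removed, and the authors deposited the counts per Ensembl gene as whole numbers without normalization, with tables of genes above 1 CPM in 6 or more libraries of a station. The deposited FPKM, made by the authors with edgeR from those counts, gave gene lengths only. CPM were computed here from totals of the full count tables (pseudocount 1 for log2).

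Each station was tested apart with edgeR 4.0.16 (TMM factors, robust quasi-likelihood test, Benjamini-Hochberg adjustment over all genes tested) in R 4.3.3, with DESeq2 1.42.0 beside it. Log2 fold changes are relative to AI-pregnant heifers, and the SE is their absolute value divided by the root of F. The call rule of the paper (P of 0.01 or less by both tools) takes in 0 members, since the genes it lists were left out. CPM of named members were compared by two-sided exact permutation tests, given as a description since those 8 were picked by p in the same heifers. The scripts were tested on simulated data.

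Named are the 10 members with the highest SD, on-off members by their largest gap (first 15, the other 2 added), the 2 in each direction with the smallest p per station, those at the limit of the list, and the 2 genes most like the first 3 on-off members. The lists of cell type markers and gene groups and the neighbours could not be used, because 0 identifiers matched the 37063 genes of the RefSeq table. Symbols of single genes (LYZ, FCER1A, SIGLEC14, ALAS2, TFF2, TAC3) come from the genes that the paper lists. The classes of libraries come from the profiles within each station, and the station label parts the 3 of station B from the 5. Alternatives were other normalization, filters, limits, a covariate and each heifer left out. Python 3.11.15 was used with pandas 2.3.3, scipy 1.17.1 and matplotlib 3.10.9.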

Additional observations from a re-analysis of the deposited data

Results flagged for a closer look

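In each group of 5 or 6 heifers, the highest or lowest value of 24 named members was set against the rest by Dixon's criterion, in 96 tests. It picked out 8 values. Chance alone picks out about 1 in 20 groups, but these members were named for their spread, gaps or outcome p, partly in the same libraries, so that rate is no yardstick for the 8 and they are given as a description. In 4 of them the heifer was B-AI 3, 1 of the 3 libraries of station B unlike its other 9, against the other 5 AI-pregnant heifers of station B, all among the 9. These were ENSBTAG00000003152 at 16.5 CPM (others 0.236 to 1.88), ENSBTAG00000021978 at 27.5 CPM (others 0.118 to 1.54), ENSBTAG00000030162 at 7.42 CPM (others 0.354 to 1.49) and ENSBTAG00000039237 at 350.3 CPM (others 0.303 to 1.65).

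ENSBTAG00000045929 was at 0.0687 CPM in A-AI 6, far below the 4.27 to 12.3 CPM of the other AI-pregnant heifers of station A. ENSBTAG00000005666 was at 2.30 CPM in A-NB 4, where the other NB-pregnant heifers were at 23.9 to 39.8. ENSBTAG00000013953 stood high in B-AI 5, at 55.5 CPM against 17.4 to 24.7. ENSBTAG00000027962 stood high in A-AI 3, at 11.03 CPM against 1.31 to 2.75.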

How the results depend on the processing

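Of 300 values recomputed under other settings, 272 were labelled as kept. A count was kept if it moved by no more than the limit set. For the 8 members named for the outcome, a log2 fold change was kept if its sign and side of the threshold held. Its size did not count. None of those fold changes reversed, but ENSBTAG00000037421 moved from -1.50 to -0.11 without B-AI 4. The directions of the members at an unadjusted p under 0.05 were not among the 300. In station A they went from 8 higher and 3 lower to 4 and 11 in the 6 libraries without a part in the choice. The number of members at an unadjusted p under 0.05 did not hold. In station A (11) it was 7 without normalization factors, 17 with the first principal component added to the model and 4 to 18 with each heifer left out, lowest without A-NB 2 or A-AI 6 and highest without A-NB 1; it was 5 without A-NB 4 or A-NB 5, 6 without A-AI 1 or A-AI 3 and 7 without A-NB 3. In station B (2) it was 1 with DESeq2 size factors and without a filter on low counts, 7 with the DESeq2 Wald test, 10 with that component, 7 without the 3 libraries unlike the other 9 of that station, and 1 to 20 with each heifer left out, highest without B-AI 3. All genes at that p numbered 56 to 668 and 26 to 2233 over the settings. By adjusted p, station B had 1 member without those 3 libraries, ENSBTAG00000027962 (log2 fold change 2.66), and 0 in each of the other settings, station A 0 throughout. The on-off count of 17 was 35 with off under 1 CPM, 8 with off under 0.25 CPM and 14 to 17 with each library left out. Of the members in the top 10% by SD, 68 to 86 (main value 83), 66 to 80 (73), 29 to 49 (55, lowest without B-AI 3) and 10 to 15 (13) were left with each library left out, in the 6, 9, 3 and 12 libraries. Of the list of 100, 67 to 85 stayed with 1 of the 5 libraries left out, 94 to 97 with another pseudocount or TMM-scaled CPM, and 73 with a mean of 10 to 200 CPM. The cause of these shifts was not tested. The pattern inside a class, the removal of counting variance and the block were chosen after seeing the data. No paired analysis was possible because the labels give the groups no shared replicate numbers. Values near 0.5 CPM rest on 2 to 10 pairs, so that off says that a transcript was not detectable or nearly so at this depth.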
